A study of Homo sapiens with 20 samples.

Results

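The 43 genes described here encode proteins of DNA replication and S phase. They license and open the origins, synthesize and join the new strands, supply nucleotides, and load histones behind the fork, and 3 of them are E2F transcription factors. They were chosen by gene name, and each of the 43 names was found once among the 60719 genes of the table. RNA sequencing gave their mRNA levels in 20 libraries. WT Jurkat T lymphoblasts, which stem from a human leukemia, gave 10, and JinB8, a CD47- mutant derived from Jurkat, gave the other 10. Cells of both lines were plated in serum-free HITES medium. Both lines were left untreated for 1 h, or were held for 1, 3 or 6 h on immobilized anti-CD3 and anti-CD28 (CD3+CD28), on both antibodies with thrombospondin-1 (CD3+CD28+TSP1), or with TSP1 alone. TSP1 was used at 1 μg/mL and anti-CD28 at 4 μg/mL. Each condition was sequenced once per line, so a time point holds 4 libraries at 1 h and 3 at 3 and 6 h, and their spread includes the treatments. The CD47- cells are 1 mutant line, so the lack of CD47 and any other difference between the lines cannot be told apart.

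In each cell cycle, the origin recognition complex, CDC6 and CDT1 load the MCM2 to MCM7 helicase on DNA before S phase. CDC45 and the GINS complex then activate it, DNA polymerase α with its primase starts each strand, and polymerases δ and ε extend the strands with the PCNA clamp. Many of these genes are targets of the E2F factors, which are released from retinoblastoma proteins late in G1, and their mRNAs are known to be high in G1 and S phase. Jurkat cells proliferate without a stimulus, and the bulk RNA of a culture therefore mixes cells of all phases. In bulk RNA, a smaller share of cells in S phase and less mRNA per cell cannot be told apart.

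Promoter sequences are shown here because many genes of this kind are known E2F targets. The words TTTCCCGC, TTTCGCGC, TTTGCCGC and TTTGGCGC, which are forms of the E2F site, were searched on both strands of RefSeq promoters (GRCh38.p14), in a window from 250 bases before to 50 after the first listed start of each gene. Of the 43 genes, 37 had a promoter in that table, and 20 of the 37 (54.1%) held a match. In comparison, 908 of 27305 promoters of all genes (3.33%) and 3 of 20 promoters of mitosis genes held one. The words are rich in G and C, and the median GC content was 65.7% in the promoters of the members and 58.3% in all promoters. The part of base composition in the difference was not tested. Overlapping matches were counted separately. The 200 bases before the start site are printed for 5 genes, 5′ to 3′ on the strand of the gene, with the matched words in capitals. MCM6 (chr2:135876444-135876643, minus strand) had 4 matches, the most of the 37, in 2 overlapping pairs that begin 152, 148, 90 and 86 bases before the start site. E2F1 (chr20:33686386-33686585, minus strand) had 2, at 33 and 20 bases. POLA1 (chrX:24693718-24693917, plus strand) and RFC3 (chr13:33817949-33818148, plus strand), the members with the smallest p between the lines, had 1 each, at 137 and 55 bases. RRM2 (chr2:10122539-10122738, plus strand), also much lower in CD47- cells, had 0 of these words in its window.
MCM6: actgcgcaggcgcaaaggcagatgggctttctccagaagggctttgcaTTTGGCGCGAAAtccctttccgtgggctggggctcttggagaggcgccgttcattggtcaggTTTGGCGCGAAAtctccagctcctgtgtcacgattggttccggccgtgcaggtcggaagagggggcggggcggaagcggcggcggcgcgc
E2F1: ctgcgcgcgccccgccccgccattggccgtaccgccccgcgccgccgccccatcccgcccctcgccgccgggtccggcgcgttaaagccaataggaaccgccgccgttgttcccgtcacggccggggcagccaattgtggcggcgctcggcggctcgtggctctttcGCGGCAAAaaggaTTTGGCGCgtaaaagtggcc
POLA1: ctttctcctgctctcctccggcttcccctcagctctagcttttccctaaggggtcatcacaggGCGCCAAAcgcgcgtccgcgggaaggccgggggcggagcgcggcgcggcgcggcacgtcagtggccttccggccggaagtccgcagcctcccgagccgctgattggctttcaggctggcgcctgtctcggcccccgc
RFC3: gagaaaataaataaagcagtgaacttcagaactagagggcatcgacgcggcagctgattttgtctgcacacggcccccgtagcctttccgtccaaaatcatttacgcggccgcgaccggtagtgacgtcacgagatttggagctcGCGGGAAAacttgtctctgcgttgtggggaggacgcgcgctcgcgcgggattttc
RRM2: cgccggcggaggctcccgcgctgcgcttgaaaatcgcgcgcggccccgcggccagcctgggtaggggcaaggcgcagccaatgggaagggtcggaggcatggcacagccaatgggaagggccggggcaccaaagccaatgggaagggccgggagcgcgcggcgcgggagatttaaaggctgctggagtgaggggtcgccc

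The deposited values are expected counts, and totals lay between 20483642 and 31737616 in WT libraries and between 16107921 and 28525524 in CD47- libraries. Expression is given as CPM, which is counts per 1e6 counts after TMM scaling of the library totals. All 43 members were among the 18387 genes that passed the low-count filter, and their lowest value in any library was 9.38 CPM. CD47 mRNA lay between 250 and 371 CPM in WT libraries and between 123 and 165 CPM in CD47- libraries. The paper reports, from flow cytometry, that CD47 was absent from the surface of the mutant cells. All of 10 T cell markers were above 1 CPM in every library of both lines, and their summed level ranged from 1889 to 2656 CPM in WT, against 1773 to 2584 CPM in CD47- cells. Single markers differed between the lines, such as TRAC, at 122 to 299 CPM in WT and 15.0 to 28.9 CPM in CD47- libraries, and CD28, at 24.6 to 65.4 and 201 to 264 CPM. Their part in the results was not tested. The summed levels of 4 B cell markers were 33.4 to 54.1 CPM in WT and 4.32 to 10.4 CPM in CD47- cells, almost all from CD79A, and the B cell gene MS4A1 reached at most 0.163 CPM. The library of CD47- cells given CD3+CD28+TSP1 for 3 h stood apart. It had the lowest total, a TMM factor of 1.21 and 14759 genes above 1 CPM, compared with 14008 to 14209 in the other CD47- libraries. Its median correlation with the other libraries of its line and time was 0.982, the lowest of the 20 libraries. The median of the 43 genes was 0.32 below their mean in this library on the log2 scale, compared with 0.08 and 0.04 below in the other CD47- libraries at 3 h. The main counts that rest on the CD47- libraries at 3 h, and the values of several genes, are therefore given with and without it.

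The abundance of the members, averaged over all times, differed widely when counts were divided by transcript length. The order can differ at single times, since the members fell by different amounts. PCNA, the sliding clamp, was the most abundant in both lines, with 215 ± 35.8 CPM per kb (SD, n = 10) in WT and 155 ± 27.6 CPM per kb in CD47- cells. It was followed in WT by RRM2 at 172 ± 28.7 CPM per kb, TYMS at 164 ± 43.3 CPM per kb and MCM7 at 133 ± 11.9 CPM per kb. The order of RRM2 and TYMS in WT did not differ beyond their spread. In CD47- cells RRM2 had 104 ± 19.4 CPM per kb, below TYMS at 132 ± 35.8 CPM per kb and MCM7 at 116 ± 12.9 CPM per kb, again within the spread of neighbouring genes. CHAF1B, a subunit of the chromatin assembly factor CAF-1, was the least abundant in both lines, with 7.22 ± 1.79 CPM per kb in WT and 6.81 ± 1.14 CPM per kb in CD47- cells.

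The first comparison asked which of these genes differ between the lines over all libraries. Of the 43 genes, 18 were lower and 0 higher in CD47- cells (edgeR quasi-likelihood test, Benjamini-Hochberg adjusted p under 0.05 over all 18387 genes). Among all genes tested, 18.8% were lower and 20.7% higher. The median log2 fold change of the 43 genes was −0.26, and that of all genes tested was 0.012. The largest differences were in POLA1, the catalytic subunit of the polymerase that starts DNA strands, and in RRM2, the small subunit of ribonucleotide reductase. A total of 25 members had an unadjusted p under 0.05, and the share of all genes under that threshold is not given here. With a block for the 10 pairs, each a WT and a CD47- library of the same treatment and time, which removes the change with time from the spread, 29 members were lower and 1, POLD3, was higher, compared with 24.7% lower and 27.4% higher among all genes in the same model. The block added ORC1, CDC6, CDT1, MCM7, MCM10, GINS2, PRIM2, RFC2, RFC4, TYMS and CHAF1A to the 18 lower genes. A term for time in place of the block gave 29 lower members and 3 higher, namely MCM3, POLD3 and TK1. The share of all genes in that model is not given here. Within pairs, 23 members were lower in CD47- cells in 10 of 10 pairs and 4 more in 9 of 10 pairs. Of all genes tested, 14.1% were lower in 10 of 10 pairs and 21.8% in at least 9. The heat map shows the level of each gene in each library.

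**Figure D1:**
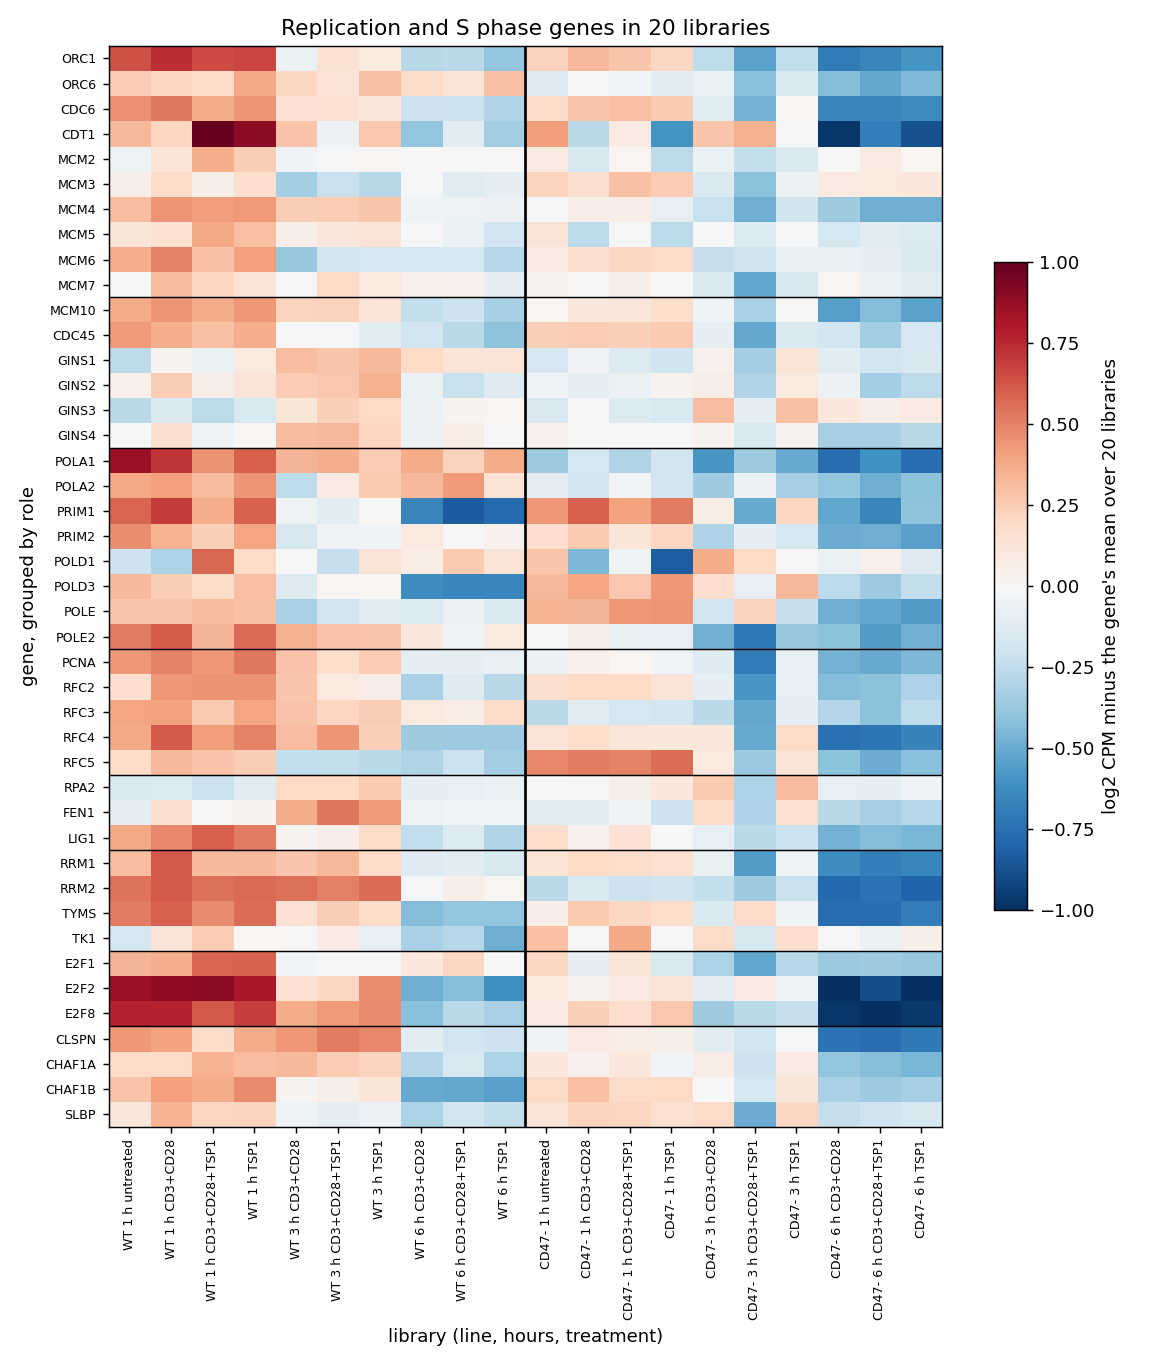
Level of each of the 43 genes (rows, grouped by role) in each of the 20 libraries (columns, by line, hours and treatment), as log2 CPM minus the mean of the gene over all libraries. Many rows, such as ORC1, E2F2 and E2F8, are highest (red) in WT at 1 h and lowest (blue) in CD47- cells at 6 h, and GINS3, RPA2, FEN1 and POLD1 depart from this.

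Among the licensing genes, 3 of 10 were lower in CD47- cells, or 7 of 10 with the block, and 0 were higher. ORC6, a subunit of the origin recognition complex (chr16:46689643-46698394, GRCh38), ranged from 46.6 to 55.7 CPM with a median of 49.4 in WT libraries. In CD47- libraries it ranged from 29.7 to 42.0 CPM with a median of 38.7, so the lines did not overlap. Its means were 50.1 ± 2.78 CPM (SD, n = 10) in WT and 36.5 ± 4.92 CPM in CD47- cells, and the change was −0.45 on the log2 scale (SE 0.0745, adjusted p = 3.44e-05 by edgeR). The helicase subunits MCM4, at −0.44 (SE 0.0953, adjusted p = 0.000745 by edgeR), and MCM5, at −0.20 (SE 0.0728, adjusted p = 0.0295 by edgeR), were the other called genes of this group. The call of MCM5 was lost on leaving out any of 4 single libraries, with adjusted p up to 0.0581. ORC1, the largest subunit of the origin recognition complex, was lower in CD47- cells in 10 of 10 pairs, but over all libraries its log2 fold change of −0.40 had an adjusted p of 0.0843 by edgeR, and with the block the adjusted p was 1.84e-05. MCM3 had a change of 0.13 on the log2 scale (SE 0.0894, adjusted p = 0.283 by edgeR) and was lower in 2 of 10 pairs. Its adjusted p by edgeR was 0.0683 with the block and 0.0203, as a higher gene, with a term for time instead. The MCM2 to MCM7 subunits thus had log2 fold changes from −0.44 to 0.13, although they act as a single ring.

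Of the 6 helicase activation genes, GINS1 and GINS4 were lower in CD47- cells, and the call of GINS4 was lost on leaving out any of 8 single libraries, with adjusted p up to 0.0812. With the block, MCM10 (adjusted p = 0.00015 by edgeR) and GINS2 (adjusted p = 0.013 by edgeR) were also lower. GINS1, a subunit of the GINS complex, ranged from 57.1 to 86.0 CPM with a median of 75.2 in WT, against 54.2 to 75.4 CPM with a median of 61.8 in CD47- cells. Its libraries overlapped between the lines, and its log2 fold change was −0.24 (SE 0.0767, adjusted p = 0.0164 by edgeR). GINS3, another subunit of the same complex, was 41.7 ± 5.31 CPM in WT against 43.3 ± 5.45 CPM in CD47- cells, with a change of 0.056 on the log2 scale (SE 0.0846, adjusted p = 0.633 by edgeR). Without the CD47- library that stood apart, the count of lower members over the whole list was 15 instead of 18, and 0 were higher. With all libraries, 18.8% of all genes tested were lower, and the share in the smaller fit is not given here.

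In the polymerases and primase, 3 of 8 genes were lower, and they included the widest difference of the list. POLA1 (chrX:24693873-24996986, GRCh38) ranged from 77.3 to 120 CPM with a median of 85.3 in WT, against 38.6 to 58.2 CPM with a median of 48.8 in CD47- cells. The lowest WT library was above the highest CD47- library. The means were 91.3 ± 13.9 CPM and 48.3 ± 7.21 CPM, and the log2 fold change was −0.92 (SE 0.0965, adjusted p = 6.62e-08 by edgeR). POLA2, the regulatory subunit of the same polymerase, had a change of −0.52 on the log2 scale (SE 0.0888, adjusted p = 5.90e-05 by edgeR), and 16.8% of its exonic bases are shared with ENSG00000285816 on the same strand, so part of its count is uncertain. The primase subunits had values of 0.0050 for PRIM1 (SE 0.217, adjusted p = 0.988 by edgeR) and −0.26 for PRIM2 (SE 0.117, adjusted p = 0.0873 by edgeR, and 0.00281 with the block). PRIM2 has near-identical copies of part of its sequence in the genome, and its count is therefore uncertain. POLE2, a subunit of polymerase ε, was lower by a change of −0.63 on the log2 scale (SE 0.111, adjusted p = 8.18e-05 by edgeR), while its catalytic partner POLE was at −0.0060 (SE 0.143, adjusted p = 0.979 by edgeR). POLD3, a subunit of polymerase δ, was lower in CD47- cells in 1 of 10 pairs, and its log2 fold change was 0.18 (SE 0.147, adjusted p = 0.364 by edgeR) over all libraries and 0.20 (adjusted p = 0.0101 by edgeR) with the block.

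Of the clamp and its loader, 2 of 5 genes were lower. With the block, RFC2 (adjusted p = 0.0042 by edgeR) and RFC4 (adjusted p = 0.00049 by edgeR) were also lower. RFC3, a subunit of the clamp loader (chr13:33818069-33966558, GRCh38), ranged from 74.7 to 94.0 CPM with a median of 84.5 in WT, against 49.6 to 66.1 CPM with a median of 59.1 in CD47- cells. The ranges did not overlap, the means were 85.0 ± 6.93 CPM and 59.4 ± 5.15 CPM, and the log2 fold change was −0.52 (SE 0.0649, adjusted p = 9.60e-07 by edgeR). PCNA was lower by a change of −0.47 on the log2 scale (SE 0.111, adjusted p = 0.00167 by edgeR). RFC5, which belongs to the same loader as RFC3, was at 0.15 (SE 0.155, adjusted p = 0.461 by edgeR). Among the genes of single-strand binding and the lagging strand, the flap endonuclease FEN1 (−0.27, SE 0.0950, adjusted p = 0.0265 by edgeR) and the ligase LIG1 (−0.33, SE 0.124, adjusted p = 0.0382 by edgeR) were lower, and RPA2, a subunit of the single-strand binding protein RPA, was at 0.045 (SE 0.0831, adjusted p = 0.705 by edgeR). The call of LIG1 was lost on leaving out any of 10 single libraries, with adjusted p up to 0.0738, and that of FEN1 with 1 left out, with adjusted p up to 0.0557.

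In nucleotide supply, both subunits of ribonucleotide reductase were lower. RRM2 (chr2:10120698-10211725, GRCh38) ranged from 360 to 558 CPM with a median of 533 in WT, against 210 to 329 CPM with a median of 305 in CD47- cells, with no overlap. The means were 487 ± 81.5 CPM and 281 ± 47.8 CPM, and the log2 fold change was −0.79 (SE 0.112, adjusted p = 5.04e-06 by edgeR). RRM1, the large subunit, was lower by a change of −0.37 on the log2 scale (SE 0.136, adjusted p = 0.0346 by edgeR), and this call was lost on leaving out any of 6 single libraries, with adjusted p up to 0.0645. Thymidylate synthase, TYMS, was lower in 10 of 10 pairs, with a log2 fold change of −0.30 and an adjusted p of 0.173 by edgeR over all libraries and of 0.000123 with the block. Exons of ENOSF1, on the opposite strand, cover 39.9% of the exonic bases of TYMS, and their reads cannot be told apart without strand, which is not given in the sources used here. Thymidine kinase 1, TK1, was at 0.17 (SE 0.100, adjusted p = 0.185 by edgeR). Its adjusted p by edgeR was 0.0860 with the block and 0.0469, as a higher gene, with a term for time instead.

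All 3 E2F genes were lower in CD47- cells. E2F1, an activator of S phase genes, ranged from 34.6 to 53.4 CPM with a median of 39.5 in WT, against 24.5 to 40.8 CPM with a median of 28.6 in CD47- cells, which is a change of −0.44 on the log2 scale (SE 0.108, adjusted p = 0.00239 by edgeR). E2F2, another activator, was lower by −0.59 (SE 0.224, adjusted p = 0.0417 by edgeR), and E2F8, a repressor that is itself induced in S phase, by −0.61 (SE 0.202, adjusted p = 0.0190 by edgeR). The call of E2F2 was lost on leaving out any of 9 single libraries, with adjusted p up to 0.0775. Among the genes of checkpoint, chromatin assembly and histone mRNA, CLSPN, an adaptor of the replication checkpoint kinase CHK1, was lower, at 106 to 176 CPM with a median of 160 in WT and 72.2 to 130 CPM with a median of 116 in CD47- cells. Its log2 fold change was −0.45 (SE 0.135, adjusted p = 0.00949 by edgeR). The histone mRNA binding protein gene SLBP was at 0.012, and CHAF1A and CHAF1B were at −0.22 and −0.065, none of them called over all libraries. CHAF1A was lower in 10 of 10 pairs, and with the block its value was −0.22 (adjusted p = 0.00151 by edgeR).

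**Figure D2:**
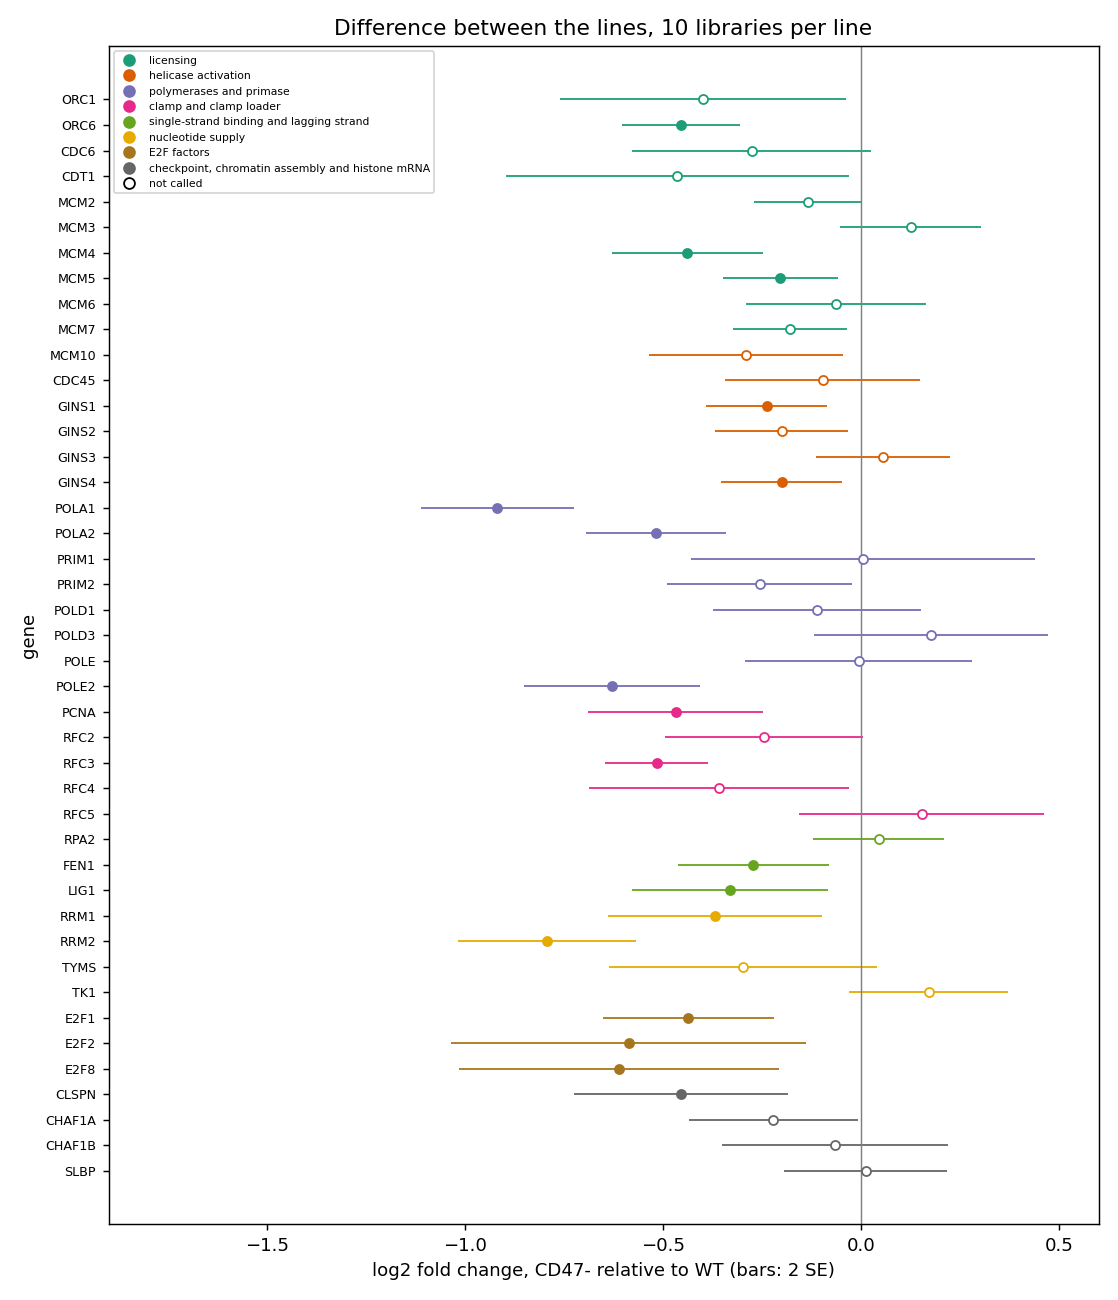
Log2 fold change of each gene, CD47- relative to WT, over 10 libraries per line (points) with 2 standard errors (bars). Colours mark the role, and open points were not called. POLA1 lies farthest to the left at −0.92, and the 18 called genes all lie below 0.

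The lines were also compared at each time, in a model with a mean for each line and time. At 1 h, 26 of the 43 genes were lower and 1 higher in CD47- cells, compared with 20.7% lower and 24.6% higher among all genes tested, and the median log2 fold change was −0.23. At 3 h, 25 were lower and 1 higher, compared with 20% and 23.1% of all genes, with a median of −0.29. At 6 h, 24 were lower and 2 higher, compared with 21.6% and 21.8%, with a median of −0.31. The medians of all genes tested were between 0.0020 and 0.028 in these comparisons. Lower at all 3 times were 18 genes, namely ORC1, ORC6, CDC6, MCM4, MCM10, POLA1, POLA2, POLE2, PCNA, RFC3, RFC4, LIG1, RRM1, RRM2, E2F1, E2F2, E2F8 and CLSPN, and 33 were lower at 1 of the times or more. Of all genes tested, 10.5% were lower at all 3 times and 33.2% at 1 or more. Leaving out the CD47- library that stood apart, these counts were 21 and 34 members, against 11.6% and 35.3% of all genes in that fit. On leaving out single libraries, the call of RRM1 at 1 h was lost with any of 6. That of CDC6 at 1 h was lost with any of 4, and that of POLA2 at 3 h with any of 4. Their adjusted p reached 0.0897, 0.0974 and 0.241 by edgeR. MCM10, RFC4, LIG1 and E2F2 also lost a call at 1 time or more. RRM2 kept a similar difference, with log2 fold changes of −0.78 (SE 0.0511) at 1 h, −0.81 (SE 0.0591) at 3 h and −0.79 (SE 0.0591) at 6 h, and the 3 h value was −0.77 (SE 0.0521) without the CD47- library that stood apart. The gene that was higher in CD47- cells at 1 h and at 3 h was RFC5, at 0.25 (adjusted p = 0.0128 by edgeR, up to 0.0566 with 1 library left out) and 0.23 (adjusted p = 0.0498 by edgeR), and the second of these calls was lost on leaving out any of 16 single libraries, with adjusted p up to 0.266. Without the library that stood apart, the 3 h value of RFC5 was larger, at 0.38 (SE 0.0565, adjusted p = 2.29e-05 by edgeR). Higher at 6 h were POLD3, at 0.36 (SE 0.0848, adjusted p = 0.00161 by edgeR), and TK1, at 0.38 (SE 0.130, adjusted p = 0.0239 by edgeR), whose call was lost on leaving out either of 2 single libraries, with adjusted p up to 0.0897. Without the CD47- library that stood apart, 29 genes were lower and 3 higher at 1 h, 26 and 4 at 3 h, and 26 and 5 at 6 h, and the 3 h median was −0.21. In that fit 23.4%, 18.8% and 24.2% of all genes were lower at these times and 26.9%, 22.6% and 24.3% higher.

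The next comparison asked how the genes changed from 1 h to 6 h in each line, with the treatments pooled. In WT cells 33 of the 43 genes fell and 1 rose, compared with 23.6% and 24.8% of all genes tested, and the median log2 fold change was −0.47, against −0.013 for all genes. In CD47- cells 31 fell and 1 rose, compared with 25.2% and 24.3% of all genes, with a median of −0.48 against −0.00024 for all genes. Both lines shared 28 of the genes that fell, which are 84.8% of the WT list and 90.3% of the CD47- list, and 16% of all genes tested fell in both lines. MCM3, MCM5, GINS2, RFC3 and TK1 passed the test in WT cells and not in CD47- cells, and ORC6, GINS4 and POLA2 in CD47- cells and not in WT cells. Of these 8 genes, only ORC6 and GINS4 were called in the test of the difference between the lines, so a difference is not shown for the others. MCM2, MCM7, GINS1, GINS3, POLD1, RPA2 and FEN1 fell in neither. All 5 genes of the clamp and its loader fell in WT cells and 4 of them in CD47- cells, and all 4 genes of checkpoint, chromatin assembly and histone mRNA fell in both lines. Of the 6 helicase activation genes, 3 fell in each line. No untreated library was analysed here at 3 or 6 h, so time in culture and time under treatment cannot be told apart.

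**Figure D3:**
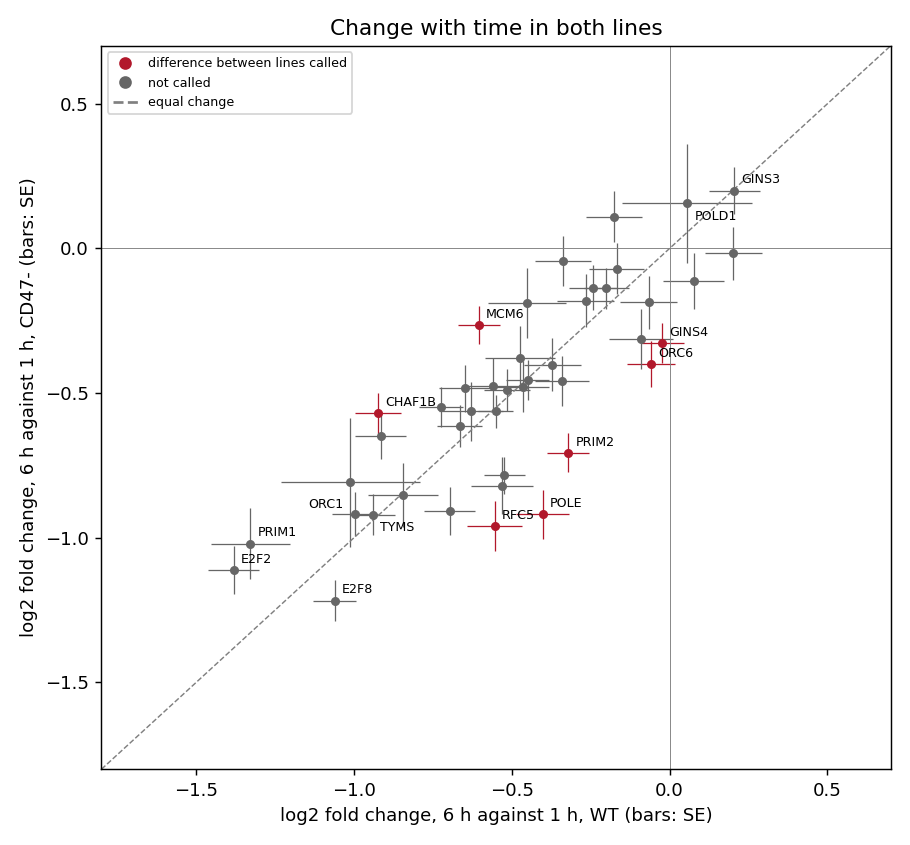
Log2 fold change from 1 h to 6 h of each gene in WT (x axis) and CD47- cells (y axis), with standard errors. The dashed line marks an equal change, and the 7 genes for which the difference between the lines was called are in red. POLE, RFC5 and PRIM2 lie below the line and CHAF1B and MCM6 above it.

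E2F2 fell the most in WT cells. Its CPM at 1 h were 148 in untreated cells, 151 with CD3+CD28, 152 with CD3+CD28+TSP1 and 143 with TSP1, and at 6 h they were 57.7, 60.4 and 52.8 with the same 3 treatments. All 1 h libraries were thus well above all 6 h libraries, and the log2 fold change was −1.38 (SE 0.0817, adjusted p = 4.93e-11 by edgeR). In CD47- cells E2F2 was 86.65, 82.9, 86.5 and 88.9 CPM at 1 h in the same order and 40.4, 43.6 and 35.7 CPM at 6 h, and its log2 fold change was −1.11 (SE 0.0820, adjusted p = 7.97e-10 by edgeR). E2F8 was 59.4, 59.6, 53.2 and 56.4 CPM in WT cells at 1 h and 25.8, 28.7 and 27.6 CPM at 6 h, and in CD47- cells 36.7, 40.95, 39.0 and 41.9 CPM at 1 h and 17.4, 16.3 and 17.5 CPM at 6 h. Its log2 fold changes were −1.06 (SE 0.0679, adjusted p = 1.33e-10 by edgeR) and −1.22 (SE 0.0699, adjusted p = 2.80e-11 by edgeR), the largest fall in CD47- cells. The 6 h level of E2F8 in WT cells was below its 1 h level in CD47- cells. E2F1 fell less, by 0.37 in WT and 0.40 in CD47- cells on the log2 scale.

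ORC1 (chr1:52372829-52404423, GRCh38) was 67.1 ± 2.12 CPM (SD, n = 4) at 1 h, 43.9 ± 3.43 CPM (n = 3) at 3 h and 33.6 ± 1.52 CPM (n = 3) at 6 h in WT cells. In CD47- cells it was 50.2 ± 1.80, 33.0 ± 3.65 and 26.6 ± 1.03 CPM at the same times, and its 3 h values were 35.1, 28.8 and 35.2 CPM, of which the lowest is from the library that stood apart. The 6 h changes were −0.996 (SE 0.0739, adjusted p = 1.03e-09 by edgeR) and −0.92 (SE 0.0747, adjusted p = 3.27e-09 by edgeR) on the log2 scale. ORC6, of the same complex, was 51.2 to 49.2 CPM on average from 1 h to 6 h in WT cells, a change of −0.059 on the log2 scale (SE 0.0769, adjusted p = 0.558 by edgeR). TYMS was 258 to 280 CPM at 1 h and 138 to 142 CPM at 6 h in WT cells, and 195 to 222 CPM and 109 to 115 CPM in CD47- cells. TYMS fell by 0.94 in WT (SE 0.0719, adjusted p = 1.57e-09 by edgeR) and by 0.92 in CD47- cells (SE 0.0721, adjusted p = 1.85e-09 by edgeR). PRIM1 fell by 1.33 in WT and 1.02 in CD47- cells, from 88.3 ± 8.48 CPM (n = 4) to 35.2 ± 2.20 CPM (n = 3) and from 83.9 ± 5.35 CPM to 41.4 ± 3.68 CPM. PRIM1 shares 10.9% of its exonic bases with ENSG00000285625 on the same strand, so part of its count is uncertain. RRM2 stayed at its 1 h level at 3 h, with log2 fold changes of −0.030 (adjusted p = 0.718 by edgeR) in WT and −0.067 (adjusted p = 0.367 by edgeR) in CD47- cells, or −0.028 without the library that stood apart, and fell by 0.55 and 0.56 by 6 h.

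GINS3 (chr16:58295080-58406147, GRCh38) was the only member called higher at 6 h in either line. Its CPM in WT cells were 35.0, 38.0, 35.1 and 37.9 at 1 h in the order above, 45.9, 49.95 and 48.6 at 3 h, and 40.5, 42.9 and 42.8 at 6 h. In CD47- cells they were 37.9, 41.6, 38.2 and 37.9 at 1 h, 52.5, 39.3 and 51.8 at 3 h, and 45.5, 43.9 and 44.6 at 6 h. The level was highest at 3 h in both lines, except in the CD47- library that stood apart. The 6 h changes were 0.21 in WT (SE 0.0806, adjusted p = 0.0413 by edgeR) and 0.20 in CD47- cells (SE 0.0803, adjusted p = 0.0448 by edgeR). These calls were lost on leaving out any of 11 single libraries for WT, with adjusted p up to 0.161, and any of 8 for CD47- cells, with adjusted p up to 0.0929.

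**Figure D4:**
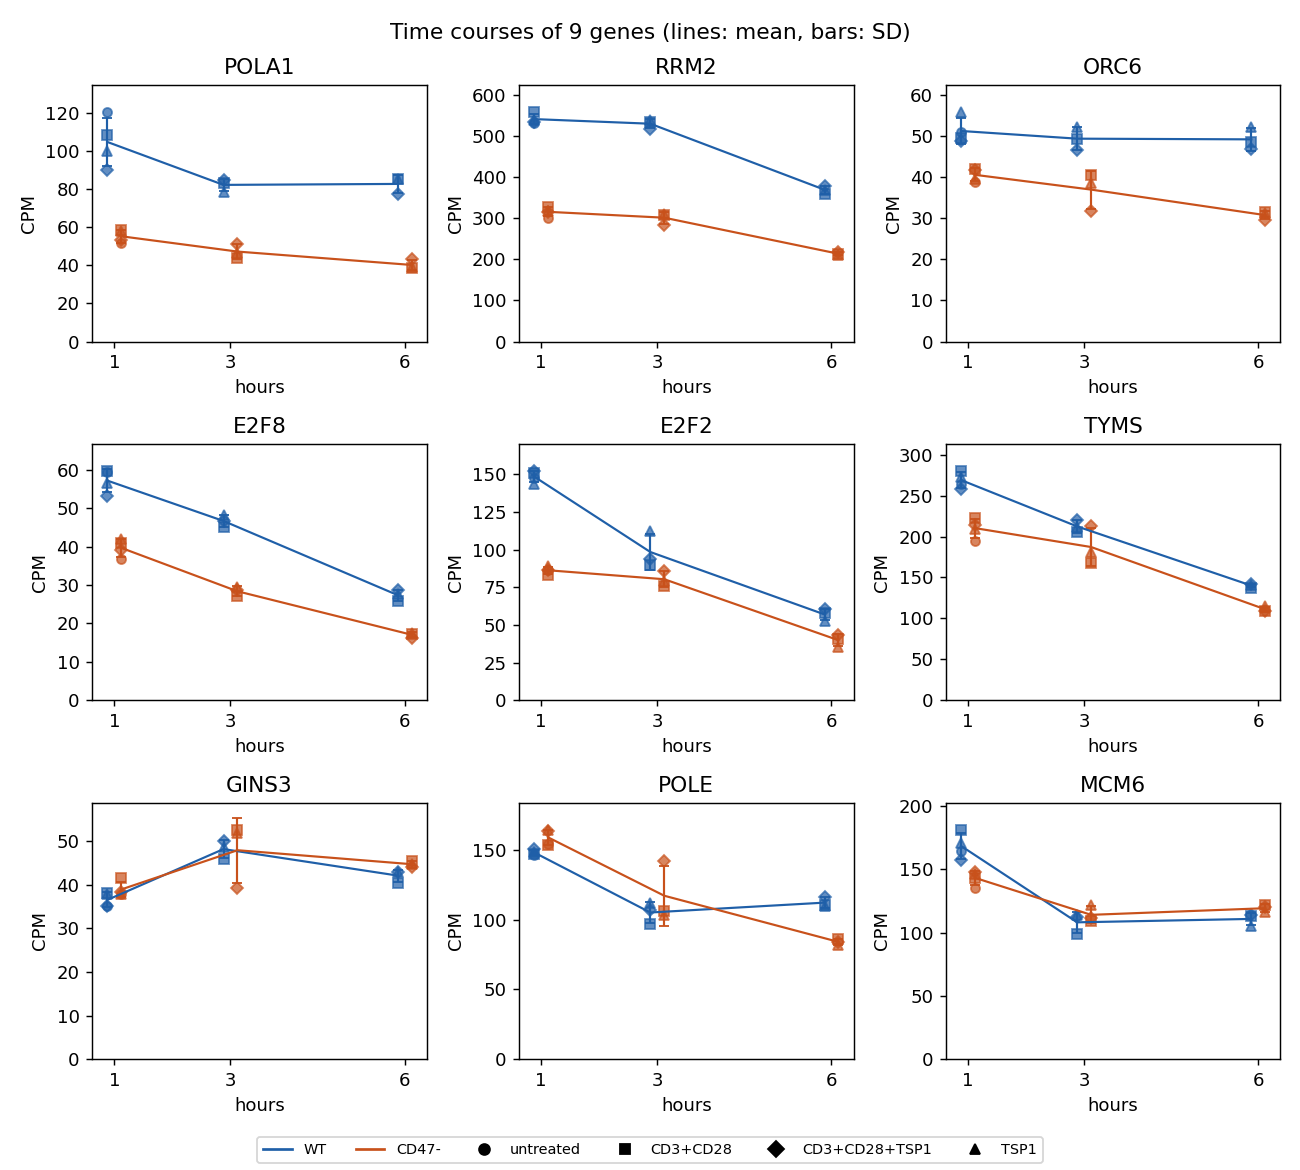
CPM of 9 genes against hours after plating in WT (blue) and CD47- cells (orange). Each point is 1 library, its shape gives the treatment, lines join the means of each time and bars are SD. POLA1, RRM2 and ORC6 separate the lines at every time, E2F2, E2F8 and TYMS fall in both lines, and POLE and MCM6 cross.

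At 3 h against 1 h, which shares its 1 h libraries with the 6 h comparison, 20 genes fell and 5 rose in WT cells, compared with 16.1% and 16.5% of all genes tested. In CD47- cells 22 fell and 1 rose, compared with 18.0% and 17.1%, and 16 genes fell in both lines, compared with 10.4% of all genes. With the library that stood apart left out, 17 fell in both lines, against 11.7% of all genes in that fit. The medians were −0.23 and −0.21, and that of CD47- cells was −0.16 without the library that stood apart. Rises at 3 h in WT cells were found for GINS1, GINS3, GINS4, RPA2 and FEN1. FEN1 was 125 ± 9.45 CPM (n = 4) at 1 h, 167 ± 9.67 CPM (n = 3) at 3 h and 120 ± 0.929 CPM (n = 3) at 6 h in WT cells, and the 3 h change was 0.42 (SE 0.0898, adjusted p = 0.00119 by edgeR). RPA2 was 77.9 ± 2.22, 101.5 ± 2.57 and 82.2 ± 1.06 CPM at the same times, and its 3 h change was 0.38 (SE 0.0961, adjusted p = 0.00426 by edgeR). By 6 h FEN1 was within its 1 h range, and RPA2, at 81.1 to 83.3 CPM, was above its 1 h range of 74.8 to 79.9 CPM. In CD47- cells, FEN1 was 139, 99.0 and 136.5 CPM and RPA2 104, 69.8 and 108 CPM at 3 h, with the low value in the library that stood apart. Their 3 h changes in CD47- cells were 0.14 (adjusted p = 0.242 by edgeR) and 0.072 (adjusted p = 0.593 by edgeR) with this library, and 0.28 (adjusted p = 0.00237 by edgeR) and 0.25 (adjusted p = 0.000598 by edgeR) without it. Without this library 18 genes fell and 4 rose in CD47- cells at 3 h, against 16.1% and 15.2% of all genes in that fit. In CD47- cells ORC1, E2F8 and RFC5 had the smallest p among the falls at 3 h. E2F8 was 27.0, 28.6 and 29.5 CPM at 3 h in CD47- cells, with no overlap with its 1 h libraries, and its log2 fold change was −0.48 (SE 0.0675, adjusted p = 1.7e-05 by edgeR), or −0.49 (adjusted p = 3.7e-05 by edgeR) without the library that stood apart. RFC5 fell by 0.54 in CD47- cells (SE 0.0860, adjusted p = 7.28e-05 by edgeR), or by 0.40 (adjusted p = 1.64e-05 by edgeR) without that library, and by 0.52 in WT cells (SE 0.0864, adjusted p = 9.86e-05 by edgeR). MCM6 fell the most in WT cells at 3 h, from 169 ± 9.99 CPM to 108 ± 8.36 CPM at 3 h (a log2 change of −0.64, SE 0.0668, adjusted p = 4.10e-07 by edgeR).

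Whether the change with time differed between the lines was tested by an interaction. From 1 h to 6 h, 2 genes had a higher and 5 a lower log2 fold change in CD47- than in WT cells, compared with 5.32% and 9.27% of all genes tested. As shares of the members, both counts were near these values, so the list did not stand out from all genes in this test. The widest difference was in POLE, the catalytic subunit of polymerase ε (chr12:132623753-132687376, GRCh38). It was 146, 147, 151 and 148 CPM at 1 h and 110, 116 and 110 CPM at 6 h in WT cells, and 154, 154, 163 and 164 CPM at 1 h and 86.1, 84.1 and 81.7 CPM at 6 h in CD47- cells. CD47- cells thus started above and ended below all WT libraries, and the difference in log2 fold change was −0.52 (SE 0.118, adjusted p = 0.00520 by edgeR). PRIM2 also fell further in CD47- cells, by 0.71 against 0.32 on the log2 scale, a difference of −0.39 (SE 0.0933, adjusted p = 0.00801 by edgeR). RFC5 fell from 98.0 ± 2.29 to 50.4 ± 1.70 CPM in CD47- cells and from 82.4 ± 3.51 to 56.1 ± 2.68 CPM in WT cells, a difference of −0.41 (SE 0.121, adjusted p = 0.0287 by edgeR). ORC6 and GINS4 had differences of −0.34 and −0.30. MCM6 fell less in CD47- than in WT cells, by 0.26 against 0.60, a difference of 0.34 (SE 0.0931, adjusted p = 0.0176 by edgeR). CHAF1B also fell less, by 0.57 against 0.92, a difference of 0.35 (SE 0.101, adjusted p = 0.0222 by edgeR). POLE, PRIM2, MCM6 and CHAF1B kept their calls with each of the 20 libraries left out, but without the low-count filter PRIM2, MCM6 and CHAF1B were not called, with adjusted p of 0.0931, 0.0738 and 0.141 by edgeR. The calls of RFC5, ORC6 and GINS4 were lost with 11, 14 and 15 libraries left out, with adjusted p up to 0.112, 0.166 and 0.164. Without the CD47- library that stood apart, 9 genes had a lower and 3 a higher change, against 13% and 7.79% of all genes in that fit.

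From 1 h to 3 h the change of 1 gene was higher and of 0 lower in CD47- than in WT cells, compared with 1.5% and 2.05% of all genes tested. The list did not stand out from all genes in this test. At an unadjusted p under 0.05 there were 8 members in this test, and DESeq2 called 2 higher and 1 lower. Without the CD47- library that stood apart, 2 were higher, E2F2 at 0.44 (adjusted p = 0.0294 by edgeR) and SLBP at 0.31 (adjusted p = 0.0316 by edgeR), and 0 lower. For the unadjusted threshold, DESeq2 and the fit without that library, the shares of all genes are not given here. With all libraries the gene was E2F2, which was 89.5, 93.5 and 112 CPM in WT cells and 76.0, 86.05 and 78.8 CPM in CD47- cells at 3 h. Its log2 fold change was −0.59 in WT cells and −0.10 in CD47- cells (−0.16 without the library that stood apart), a difference of 0.49 (SE 0.111, adjusted p = 0.0174 by edgeR). When the 3 h WT library with CD3+CD28+TSP1 was left out, the adjusted p was 0.0540 by edgeR.

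The study also compared activation and TSP1. In both lines, 0 of the 43 genes differed between CD3+CD28+TSP1 and TSP1 alone, or between CD3+CD28+TSP1 and CD3+CD28, over the 3 times. DESeq2 and limma voom also called 0 members in each of these 4 comparisons. Without the low-count filter, 2 members were called higher and 1 lower for activation in CD47- cells, and the share of all genes in that fit is not given here. Among all genes tested by edgeR with the filter, activation in WT cells changed 0.0925%, and each of activation in CD47- cells, TSP1 in WT cells and TSP1 in CD47- cells changed 0.0%. The numbers of members with an unadjusted p under 0.05 were 1 and 9 for activation in WT and CD47- cells, and 0 and 7 for TSP1. With the library that stood apart left out, they were 5 for activation and 0 for TSP1 in CD47- cells. The shares of all genes under this unadjusted threshold are not given here, so these counts cannot be set against a background. The widest intervals over the members (2 SE on each side) reached from −0.33 to 0.46 for activation in WT cells and from −0.56 to 0.77 in CD47- cells. For TSP1 they reached from −0.39 to 0.67 in WT, against −0.50 to 0.59 in CD47- cells. Each contrast rested on 3 libraries per arm, 1 at each time, and the SE of the members ranged from 0.0650 to 0.177. The smallest p belonged to ORC6 for activation in WT cells, at −0.17 (SE 0.0737, adjusted p = 0.978 by edgeR), and to PRIM1 in the other 3 comparisons. PRIM1 had log2 fold changes of −0.36 for activation in CD47- cells (SE 0.0979, adjusted p = 0.328 by edgeR), −0.19 for TSP1 in WT cells (SE 0.0977, adjusted p = 1 by edgeR) and −0.30 for TSP1 in CD47- cells (SE 0.0979, adjusted p = 0.497 by edgeR). Without the library that stood apart, the values in CD47- cells were −0.21 (adjusted p = 0.580 by edgeR) and −0.15 (adjusted p = 1 by edgeR). At 3 h PRIM1 was 62.7, 41.9 and 69.3 CPM with CD3+CD28, CD3+CD28+TSP1 and TSP1 in CD47- cells, with the lowest value in the library that stood apart. The member medians in CD47- cells were −0.084 for activation and −0.089 for TSP1 with this library, and −8.5e-05 and 0.0030 without it.

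CDT1, the licensing factor that loads MCM with CDC6, and POLD1, the catalytic subunit of polymerase δ, varied between treatments at 1 h more than the other members. CDT1 was 57.7, 53.3, 107 and 85.9 CPM in WT cells and 61.4, 38.1, 48.7 and 30.1 CPM in CD47- cells, and POLD1 was 46.5, 43.1, 80.6 and 61.5 CPM in WT cells and 65.3, 39.3, 52.2 and 30.2 CPM in CD47- cells. Both genes were thus high and low in the same 1 h libraries, in an order of treatments that differed between the lines. They were chosen for mention after their values had been seen.

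At the level of transcripts, 270 isoforms of the 43 genes were tested between the lines, and 29 were lower and 0 higher in CD47- cells, compared with 5.83% lower, 6.33% higher and 12.2% in either direction among all 75882 isoforms. The main PCNA transcript, ENST00000379143.10, held 97.7% ± 1.24 of the PCNA counts in WT and 97.8% ± 0.617 in CD47- cells (SD, n = 10). POLA1, RRM2 and RFC3 were also lower in their main transcripts, with log2 fold changes of −0.90 for POLA1 ENST00000379068.8 (SE 0.201, adjusted p = 0.00409 by edgeR), −0.78 for RRM2 ENST00000304567.10 (SE 0.121, adjusted p = 0.000110 by edgeR) and −0.48 for RFC3 ENST00000380071.8 (SE 0.0664, adjusted p = 2.7e-05 by edgeR). In E2F8, ENST00000527884.5 held 78.4% ± 4.86 of the counts in WT and 64.7% ± 9.57 in CD47- cells and was lower in CD47- cells (a log2 change of −0.90, SE 0.233, adjusted p = 0.0125 by edgeR). Its second transcript, ENST00000250024.9, held 13.8% ± 3.89 in WT and 29.8% ± 6.84 in CD47- cells, with a change of 0.57 on the log2 scale (SE 0.206, adjusted p = 0.0814 by edgeR). RSEM divides reads that transcripts share by a model, and these shares carry that uncertainty.

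Other genes of replication and genes of mitosis were taken from lists chosen by name, to place the 43 genes. Of 59 further replication genes, 25 were lower and 3 higher in CD47- cells over all libraries, with a median log2 fold change of −0.29 and a range from −1.56 to 0.415. Of all genes tested, 18.8% were lower and 20.7% higher in this comparison. DUT, which like TYMS serves thymidine nucleotide supply, was lower by a log2 fold change of −0.65, GMNN, the inhibitor of CDT1, was at −0.65, and RPA1, the large subunit of RPA, was higher at 0.33. From 1 h to 6 h, 25 of the 59 fell and 11 rose in WT cells, and 32 fell and 10 rose in CD47- cells. The shares of all genes, as above, were 23.6% and 24.8% in WT and 25.2% and 24.3% in CD47- cells. Of the cyclins of S phase entry, CCNE1 had log2 fold changes of −1.48 in WT (called) and −0.29 in CD47- cells (adjusted p = 0.0590 by edgeR), and the difference of 1.19 was called (SE 0.174, adjusted p = 9.3e-05 by edgeR). CCNE2 fell by 0.94 in WT and 0.53 in CD47- cells. POLE3 and POLE4 are small subunits of polymerase ε. POLE3 rose by 0.61 in WT and 0.75 in CD47- cells, and POLE4 rose by 0.76 in WT and was at 0.28 in CD47- cells (adjusted p = 0.105 by edgeR), with the difference not called (adjusted p = 0.114 by edgeR).

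The 25 mitosis genes moved differently with time. From 1 h to 6 h 12 fell and 5 rose in WT cells (median −0.20 on the log2 scale), while 23 fell and 0 rose in CD47- cells (median −0.96), beside the same shares of all genes. In the interaction test 23 of 25 had a lower change in CD47- cells, with a median of −0.77, compared with 9.27% of all genes and with 5 of 43 replication genes and a median of 0.024. Between the lines, 7 mitosis genes were lower and 3 (CDC20, HMMR and TPX2) higher at 1 h with a median of −0.051. Of all genes tested, 20.7% were lower and 24.6% higher at 1 h. At 6 h, 24 mitosis genes were lower and 0 higher with a median of −0.91, compared with 21.6% and 21.8% of all genes. The medians of the replication genes were −0.23 at 1 h and −0.31 at 6 h. Single replication genes departed from their median, as the values of POLE, RFC5 and CHAF1B show. The median of the 43 genes over the libraries was 0.36 ± 0.032 above their mean in WT cells at 1 h (n = 4) and 0.13 ± 0.028 below it at 6 h (n = 3), and in CD47- cells it was 0.074 ± 0.036 above and 0.41 ± 0.016 below.

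**Figure D5:**
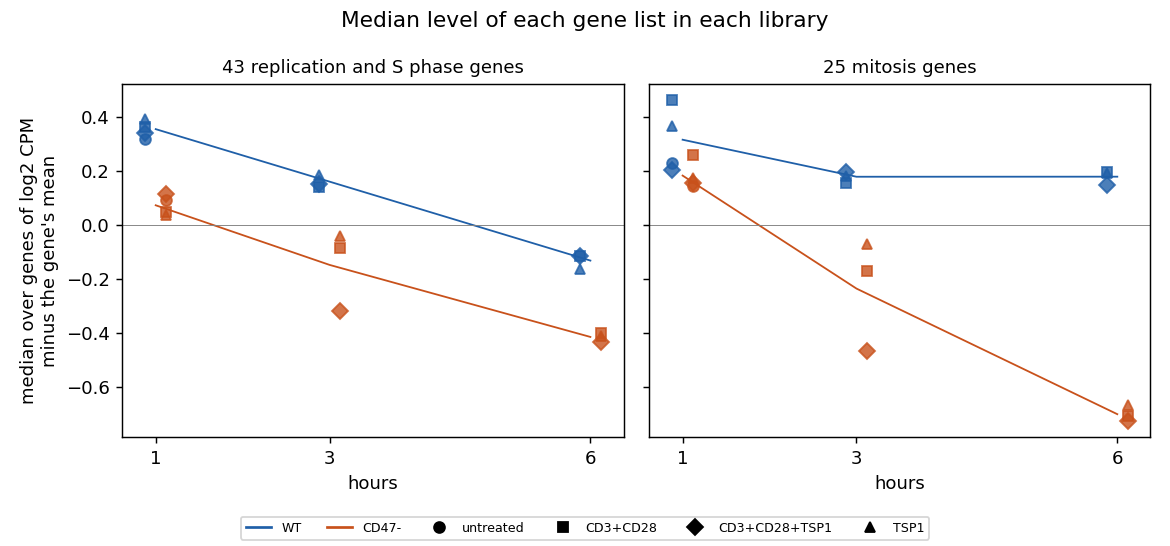
Median over the 43 replication and S phase genes (left) and over 25 mitosis genes (right) of log2 CPM minus the mean of each gene, against hours after plating, with 1 point per library and lines through the means of WT (blue) and CD47- cells (orange). On the left both lines fall by similar amounts, and on the right the CD47- libraries fall to between −0.73 and −0.66 at 6 h and the WT libraries, at 0.21 to 0.47 at 1 h, lie between 0.15 and 0.20 at 6 h.

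Among the 37 genes with a promoter, the 20 with an E2F word had a median log2 fold change of −0.31 between the lines and the 17 without one had −0.24. From 1 h to 6 h the medians were −0.39 with and −0.55 without a word in WT cells, and −0.43 and −0.56 in CD47- cells. The medians of the members with and without a word thus had the same direction in all 3 comparisons. Single members departed from them, such as GINS3, which holds a word and was called higher at 6 h in both lines. MCM6, with the most words, fell from 1 h to 6 h in both lines and was not called between the lines over all libraries (a log2 change of −0.064, SE 0.114, adjusted p = 0.693 by edgeR), and RRM2, without any, was lower in CD47- cells and fell in both lines.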

How the data were processed

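RNA of 20 libraries, 10 per line, was sequenced by the authors, who trimmed reads with Cutadapt 1.18, aligned them to hg38 with STAR 2.4.2a in 2-pass mode and counted them with RSEM 1.3.3 on GENCODE 36. The values deposited are unnormalized RSEM expected counts, of 60719 genes in one file and 232184 isoforms in another. Each table has 2 columns of no sample here, which were not used. The study removed a batch with ComBat that its text does not name, and this step was not repeated. The anti-CD3 dose is given in 2 ways in the sources and is left out.

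Counts were rounded for edgeR 4.0.16 and DESeq2 1.42.0 and left unrounded for limma 3.58.1 voom (R 4.3.3). Genes were filtered with filterByExpr by line and time (minimum count 10, minimum total 15), scaled by TMM, tested by quasi-likelihood and adjusted by Benjamini-Hochberg over all 18387 genes at 0.05. The models were the line alone, 6 means of line and time, and line by treatment with time terms in each line. The scripts were checked on simulated data. Standard errors come from the F statistic of each contrast. Replicate numbers mark the same treatment and time in both lines, and the pairs were used as a block in an alternative. Deviations from the line means correlated by 0.125 to 0.559 within the 10 pairs. They include the change with time that the lines share, so these correlations do not show that the pairs were matched. Only 1 WT library correlated best with its own pair. Nothing says that libraries of a line came from separate cultures, so p-values measure the spread between these libraries. Gene positions are from GENCODE 44.

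The genes given with full values were chosen by a rule. It took the 4 called genes lower and the 4 higher between the lines with the smallest p, the 3 called in each direction with the smallest p in each time contrast and interaction, the gene with the smallest p in each treatment contrast, and the smallest p in each role group. Other genes that are given with single values, among the members and in the further lists, were not chosen by this rule. The members, groups, lists and this rule were chosen with earlier results of these data known. The results were recomputed with DESeq2, with quantile-normalized limma voom, with upper-quartile factors, with 2 other filters, with the block or a time term, on the 6 activated pairs or the 4 unactivated ones, with treatment terms, without untreated libraries and with each library left out. Precision is limited by 3 or 4 libraries per line and time.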

Additional observations from a re-analysis of the deposited data

Results flagged for a closer look

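Of 88 groups of libraries examined, 5 held a library far from the others by Dixon's ratio at the 95% level, and chance gives about 1 in 20. RFC3 was 84.9 CPM in the WT library given CD3+CD28+TSP1 for 1 h, below the other 1 h libraries of that line. GINS3 at 41.6 CPM and CHAF1B at 35.3 CPM were highest in the CD47- library given CD3+CD28 for 1 h. The total of 16107921 counts in the CD47- library given CD3+CD28+TSP1 for 3 h was the lowest of its line, and that of 31737616 counts in the WT library given CD3+CD28+TSP1 for 6 h was the highest of its line.

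The lines differed in their change from 1 h to 6 h, by the interaction test, in 7 members, 2 higher and 5 lower in CD47- cells. Among all genes tested 5.32% were higher and 9.27% lower, and the shares of the members were near these values. Without the CD47- library with the lowest total, 3 members were higher and 9 lower, against 7.79% and 13% of all genes. The log2 fold changes of CD47- cells were lower than those of WT cells for ORC6 (−0.34), GINS4 (−0.30), PRIM2 (−0.39), POLE (−0.52) and RFC5 (−0.41), and higher for MCM6 (0.34) and CHAF1B (0.35). The calls of RFC5, ORC6 and GINS4 were lost on leaving out any of 11, 14 and 15 single libraries. For the change from 1 h to 3 h they differed in E2F2 (0.49). Their causes were not tested.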

How the results depend on the processing

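The 219 member results called by edgeR kept their direction in all 1569 values under the other settings and 4380 values with a library left out, and 85 and 212 of these values no longer passed. Between the lines over all libraries, the replicate block of 10 pairs gave 1 member higher and 29 lower, the time term 3 and 29, and the 6 activated or 4 unactivated pairs alone 9 and 6 lower, on fewer libraries. With a library left out, 14 to 24 were lower and 0 higher. Apart from those stated with the results above, the shares of all genes in the fits of this section are not given here. A change in the members and a change in the calls of all genes can therefore not be told apart from these counts. The treatment model already holds a time term in each line, and no result with the block is given for it. The other counts moved as follows, and the cause was not tested. At 1 h, voom gave 2 members higher in CD47- cells and 0 were higher without the untreated libraries. At 3 h, voom gave 2, and no filter, treatment terms and no untreated libraries gave 0 each. At 6 h, DESeq2, upper-quartile factors and the 1 CPM filter gave 4 higher and voom 5. Higher at 6 h than at 1 h in WT cells were 0 by DESeq2, upper-quartile factors, no filter, treatment terms or no untreated libraries. In CD47- cells this was 2 by voom and 0 by no filter, treatment terms or no untreated libraries. Higher at 3 h in CD47- cells were 2 by voom, no filter or no untreated libraries. In the 6 h interaction, higher and lower members were 5 and 3 with upper-quartile factors or the 1 CPM filter, 0 and 2 without a filter, and 4 and 3 without the untreated libraries. In the 3 h interaction, DESeq2 and voom gave 2 higher and 1 lower, upper-quartile factors, the 1 CPM filter and no untreated libraries 2 higher, and no filter 3 higher. Activation in CD47- cells gave 2 higher and 1 lower without a filter. Of the isoforms, 1 was higher with a filter of 1 CPM in every library of a line. With a library left out, higher and lower members ranged from 0 to 3 and 21 to 29 between the lines at 1 h, 0 to 4 and 23 to 26 at 3 h, and 1 to 5 and 21 to 26 at 6 h. At 6 h against 1 h the ranges were 0 to 2 and 32 to 35 in WT and 0 to 1 and 30 to 35 in CD47- cells, and at 3 h they were 5 and 18 to 26 in WT and 0 to 4 and 18 to 24 in CD47- cells. In the interactions they were 2 to 3 and 2 to 9 at 6 h, and 0 to 2 and 0 to 1 at 3 h. The treatment comparisons stayed at 0. Depth was at least 16107921 counts per library, and the number of libraries limits the precision.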
